A study of Mus musculus with 8 samples.

Results

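The proteasome genes described here are the rows of the deposited transcriptome table whose symbol is Psm, then a letter from a to g, then a number. The rule found 49 genes among 23361. Of these, 48 reached 1 FPKM, a fragment count scaled to transcript length and library total, in 1 group or more, against 11158 genes of the whole table. The gene below that level was Psmb11, a core subunit of the thymus, which stood at 0.0673 FPKM or less. The 48 genes comprised 7 alpha and 7 constitutive beta subunits of the core particle, 5 inducible subunits, and 6 ATPases and 11 other subunits of the regulatory particle. They also held 7 assembly factors, 3 further regulators (Psme3, Psme4 and Psmf1), the testis subunit gene Psma8, and Psmc3ip. Psmc3ip matches by its name alone: it encodes a meiotic recombination factor and no proteasome subunit.

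The samples were established acute myeloid leukaemia lines of mouse strain 129S6, derived from bone marrow and transformed with the fusion oncogene MLL-AF9. Group by group these were Cdc73fl/fl CreERT2 cells and Cdc73 +/+ CreERT2 cells, called floxed and wild type below, each after 24 or 48 h in 7.5 nM 4-hydroxytamoxifen (4OHT). 4OHT activates CreERT2, which excises the floxed Cdc73, a subunit gene of the PAF1 elongation complex. All 4 groups carried MLL-AF9 and CreERT2 and received 4OHT, and each had 2 libraries labelled as biological duplicates. How many clones a line holds was not given in the sources used here. The genotypes are different lines, and cells without 4OHT were not analysed here, so any difference that preceded 4OHT is part of every comparison.

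The table gives 1 FPKM value per gene and group with the duplicates combined, so no spread between libraries can be stated. A gene was called when the q-value in the authors' deposited table, for floxed against wild type cells at that time, was under 0.05. Cdc73 itself read 26.2 (wild type) and 5.96 (floxed) FPKM at 24 h, then 26.9 and 5.45 at 48 h. Pairs of FPKM values are given in this order throughout, wild type first. Depth per library is not given. The most common ratio among genes under 0.05 FPKM in both groups, floxed over wild type, was 0.834 at 24 h and 1.07 at 48 h, and how far these ratios reflect depth was not tested. Myeloid markers, 6 of 7 at 1 FPKM or more, summed to between 5627 and 6280 FPKM per group. These sums hide opposite differences at 48 h, with Lyz2 at 587 and 3333 FPKM and Elane at 3587 and 1745. Marker lists of T cells, erythroid cells and stroma each summed to 0.179 FPKM or less in every group. Of 7 dendritic cell markers, 2 reached 1 FPKM, and the list summed to between 3.80 and 6.58 in 3 groups and to 20.1 in floxed cells at 48 h. Of 2 B cell markers 1, Cd79b, reached 1 FPKM, at 0.890 and 8.21 at 24 h and 1.06 and 5.90 at 48 h. The part of these markers in the results was not tested.

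The proteasome degrades proteins tagged with ubiquitin. Its core particle, the 20S proteasome, is a barrel of alpha and beta rings in which 3 beta subunits, encoded by Psmb5, Psmb6 and Psmb7, cut the substrate. The 19S regulatory particle binds ubiquitin, removes it, and unfolds the protein with a ring of ATPases. Interferon induces Psmb8, Psmb9 and Psmb10, which take the places of the constitutive cutting subunits in the immunoproteasome, and Psme1 and Psme2, which form an activator cap. Haematopoietic cells make immunoproteasomes without stimulation, and the peptides these cut supply MHC class I molecules.

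Most proteasome genes were not called at either time, and Psmb9, Psmb10 and Psmg2 were the genes with the smallest q at both. At 24 h, 7 of 48 genes were lower and 0 higher in floxed cells, or 14.6%, where the share called among all 10987 tested genes was 27.6% (13.4% higher, 14.2% lower). At 48 h, 10 were lower and 5 higher, or 31.2%, where the share called among 11039 tested genes was 56.8% (25.7% higher, 31.0% lower). The calls at both times were Psmb8, Psmb9, Psmb10, Psmd10 and Psmg2, all lower. Psmb5 and Psmc1 were called at 24 h alone and 10 further genes at 48 h alone, but whether a difference changed between the times was not tested. The remaining 31 genes had no call. Genes with the smallest q numbered 5 at 24 h and 5 at 48 h, against 11.3% and 31.8% of all tested genes, and calls of at least 1.5-fold numbered 5 and 7, against 14.7% and 43.3%.

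The differences were also small. The median log2(FPKM + 1) difference, floxed minus wild type, was -0.05 at 24 h and -0.13 at 48 h, against -0.01 and -0.06 over all expressed genes. The median size of the difference regardless of sign was 0.12 and 0.28 for the proteasome genes and 0.21 and 0.47 for all genes. Proteasome genes were abundant, with a median of 126 FPKM in wild type cells at 24 h against 13.5 over all expressed genes. Among genes of at least 50 FPKM in some group, a level chosen after the data were seen, 20.5% of all genes (10.2% higher, 10.3% lower) and 5 of 41 proteasome genes were called at 24 h. At 48 h the same level gave 54.7% of all genes (27.1% higher, 27.6% lower) and 11 of 41 proteasome genes. Together the 48 genes held 1.06% (wild type) and 1.00% (floxed) of all FPKM at 24 h, and 1.05% and 0.948% at 48 h.

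**Figure D1:**
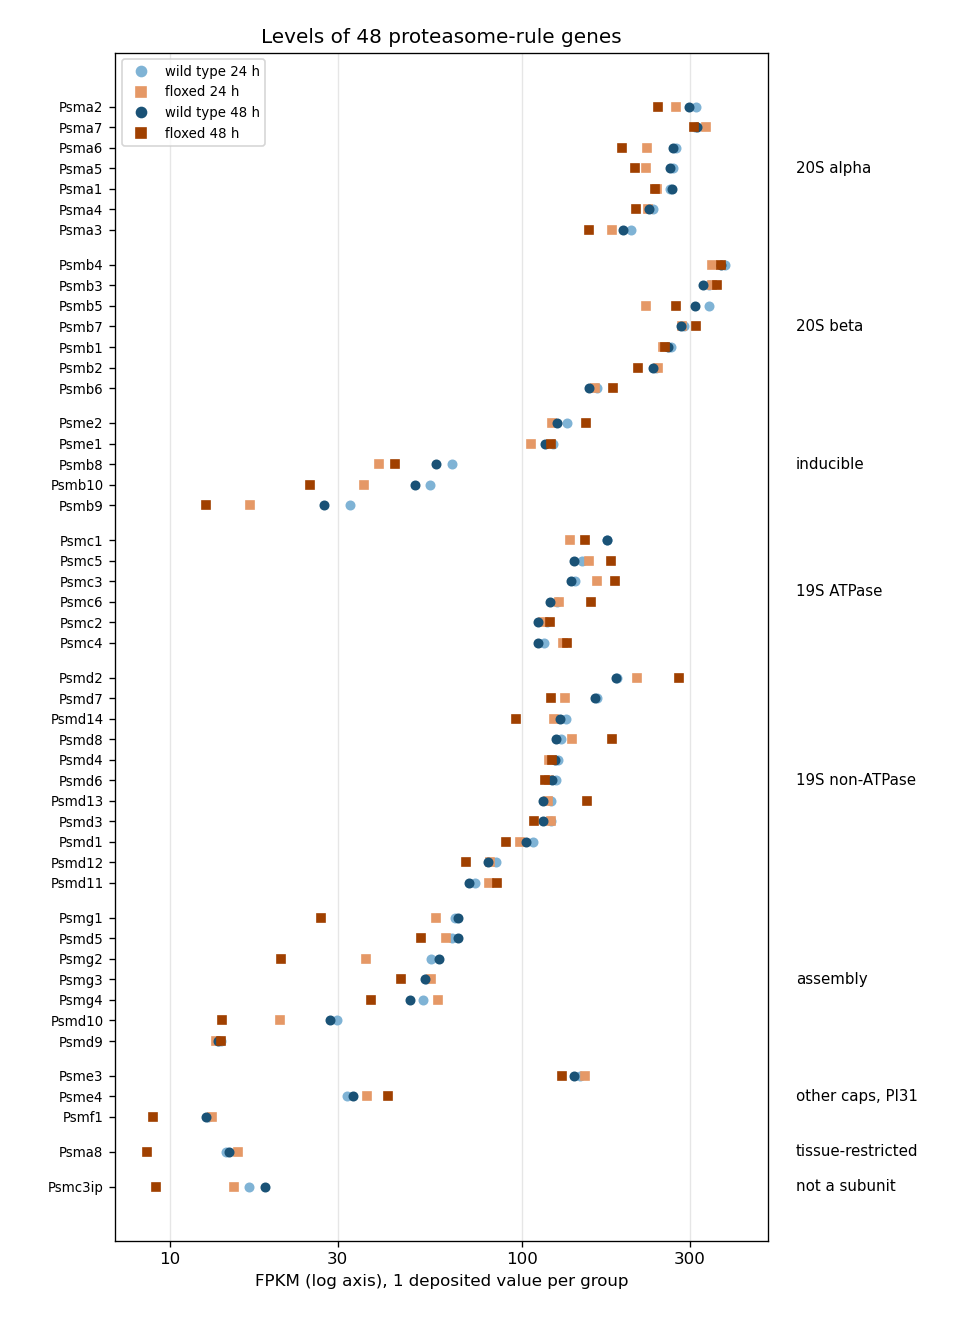
FPKM on a log axis for each of the 48 genes at 1 FPKM or more, grouped by role. Each point is the deposited value of 1 group (circles wild type, squares floxed, light 24 h, dark 48 h), with no error bar because duplicates were combined. The constitutive core genes lie between 155 and 377 FPKM, and in Psmb8, Psmb9, Psmb10, Psmg2 and Psmd10 both floxed values lie below both wild type values. The same order appears in genes without a call, such as Psma2.

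**Figure D2:**
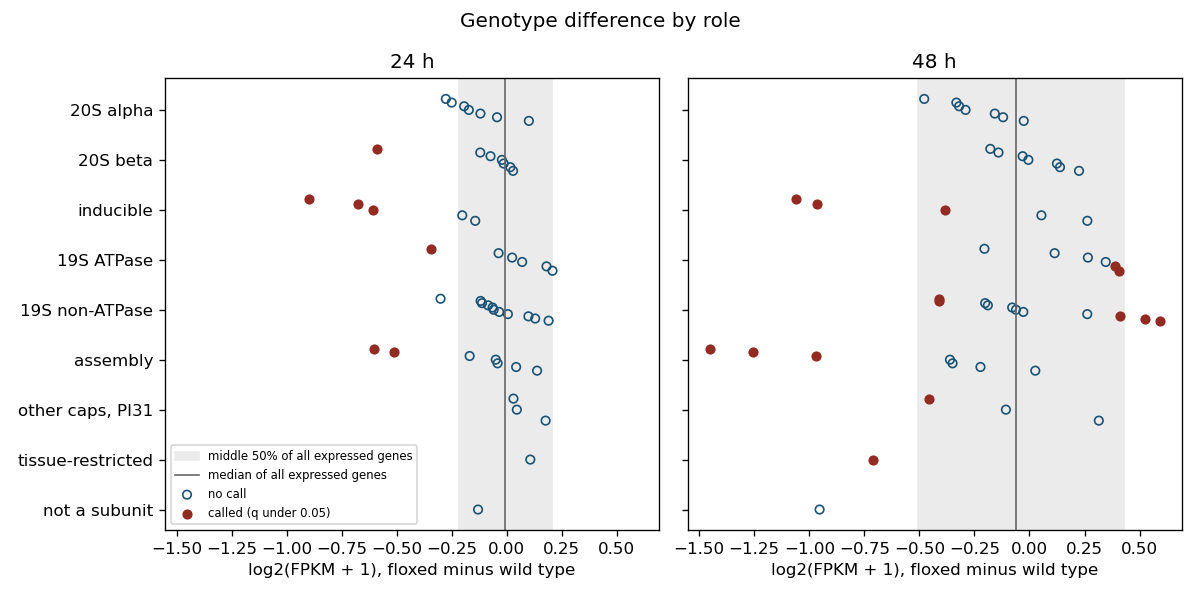
Difference of log2(FPKM + 1), floxed minus wild type, for each gene by role at 24 h (left) and 48 h (right). Filled points are called, open points are not, the line is the median of all 11158 expressed genes and the grey band holds their middle 50%. The called points at 24 h all lie left of the band, and those at 48 h lie on both sides of 0.

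Promoter sequences are shown for 5 called genes (Psmb5, Psmb8, Psmb10, Psmg1 and Psmd2) and for Psmb6, which had no call, as the constitutive counterpart of Psmb9. Psmb9 is not shown because its whole window lies in annotated exons. Psmg2 had no promoter among those available and was not searched. The sequences come from RefSeq (GRCm38.p6, the assembly of mm10), which held promoters for 41 of the 49 genes. The genes shown are a choice, and the shares with a match over all 41 follow the sequences. Each is read 5′ to 3′ on the gene's strand from the 250 bases before the start, leaving out bases that GENCODE M21 places in an exon. Of Psmb8 only the surroundings of its match are shown, which lie within a GENCODE exon. Capitals mark matches to TGACNNNGC, the core of the antioxidant response element bound by NRF1 and NRF2, or to TTCNNNGAA, the gamma-activated sequence bound by STAT factors.
Psmb5 (chr14:54618023-54618245, minus strand, antioxidant response element): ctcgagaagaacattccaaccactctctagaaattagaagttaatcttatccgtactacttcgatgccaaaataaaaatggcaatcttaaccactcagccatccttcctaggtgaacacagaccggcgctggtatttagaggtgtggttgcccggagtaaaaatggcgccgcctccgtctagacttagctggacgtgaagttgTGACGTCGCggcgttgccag
Psmb6 (chr11:70525107-70525356, plus strand, antioxidant response element): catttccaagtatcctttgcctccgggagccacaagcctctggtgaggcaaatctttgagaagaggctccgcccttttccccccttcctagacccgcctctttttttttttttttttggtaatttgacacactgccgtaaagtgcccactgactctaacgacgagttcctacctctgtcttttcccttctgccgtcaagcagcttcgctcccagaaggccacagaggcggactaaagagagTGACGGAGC
Psmb8 (chr17:34198088-34198116, plus strand, gamma-activated sequence): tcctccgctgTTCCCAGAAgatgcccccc
Psmb10 (chr8:105938445-105938642, minus strand, no match): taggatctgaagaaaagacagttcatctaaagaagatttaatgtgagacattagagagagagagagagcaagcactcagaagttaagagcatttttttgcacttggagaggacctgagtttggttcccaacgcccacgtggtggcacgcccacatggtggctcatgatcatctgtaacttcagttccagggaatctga
Psmg1 (chr16:95990961-95991210, minus strand, gamma-activated sequence): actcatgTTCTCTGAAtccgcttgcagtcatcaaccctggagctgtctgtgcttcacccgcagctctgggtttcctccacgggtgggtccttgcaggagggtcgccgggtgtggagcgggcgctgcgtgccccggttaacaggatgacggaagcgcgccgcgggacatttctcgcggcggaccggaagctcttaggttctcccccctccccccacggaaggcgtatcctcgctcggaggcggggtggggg
Psmd2 (chr16:20651402-20651651, plus strand, no match): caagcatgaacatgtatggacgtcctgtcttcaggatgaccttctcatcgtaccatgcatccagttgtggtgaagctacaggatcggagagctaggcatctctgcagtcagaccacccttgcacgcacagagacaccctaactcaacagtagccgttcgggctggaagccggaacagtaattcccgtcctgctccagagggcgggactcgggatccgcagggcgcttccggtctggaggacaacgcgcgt

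Both strands were searched in the 250 bases before each start, and matches of different motifs may overlap. TGACNNNGC occurred in 5 of 41 proteasome genes (Psmb5, Psmb6, Psmc6, Psmd9 and Psmd12), or 12.2%, against 14.3% of the 8239 expressed genes with a promoter and 10.2% of all 32851 promoters in the RefSeq table. Of these 5 genes, Psmb5 was called lower at 24 h, as were 14.2% of all tested genes. Psmc6 was called higher at 48 h, as were 25.7% of all tested genes. TTCNNNGAA occurred in 2 of 41, Psmb8 and Psmg1, or 4.88%, against 7.22% of expressed genes and 7.02% of all promoters. Both were called lower at 48 h, as were 31.0% of all tested genes, and Psmg1 had no call at 24 h. The interferon-stimulated element, a doubled GAAA, occurred in 3 of 41 (Psmb3, Psmd4 and Psmd9), or 7.32%, against 3.26% of expressed genes and 2.98% of all promoters. None of these 3 was called, where 27.6% of all tested genes were called at 24 h and 56.8% at 48 h. CCAAT, bound by NF-Y, occurred in 15 of 41, or 36.6%, against 41.4% of expressed genes and 33.8% of all promoters. A match describes the letters alone and shows no bound factor, and the absence of a match covers this window alone.

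Of the 5 inducible subunits, the 3 cutting subunits were called lower in floxed cells at both times, and the 2 activator subunits had no call. These are 60% called at each time, against 27.6% of all tested genes at 24 h and 56.8% at 48 h. All 5 lay below 0 at 24 h, Psme1 at -0.20 and Psme2 at -0.14, and at 48 h 2 lay above 0. Whether the cutting and activator subunits differ was not tested. Psmb9 (chromosome 17, 34181987 to 34187764, minus strand, GENCODE M21 on mm10) replaces Psmb6. Its FPKM was 32.5 against 17.0 at 24 h, and 27.5 against 12.6 at 48 h. Both floxed values lay below both wild type values, as they also did in genes without a call, such as Psma2. The gene was 1.92-fold lower in floxed cells at 24 h (q = 0.000449 in the authors' deposited table). At 48 h the gene was 2.17-fold lower (q = 0.000165 in the authors' deposited table). These q-values are the smallest that table holds at each time.

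Psmb10 (chromosome 8, 105935735 to 105938444, minus strand) replaces Psmb7. Its levels were 55.0 and 35.7 FPKM at 24 h, and 49.6 and 25.0 at 48 h. In floxed cells it was lower by 1.54-fold after 24 h and by 1.99-fold after 48 h, each with the smallest q in the authors' deposited table. Psmb8 (chromosome 17, 34197721 to 34201454, plus strand), whose promoter match is printed with the other sequences, replaces Psmb5. It stood at 63.5 and 39.3 FPKM at 24 h, 1.61-fold lower with q = 0.000449 in the authors' deposited table. At 48 h it stood at 57.2 and 43.6, 1.31-fold lower with q = 0.0444 in the authors' deposited table, the largest q among the calls at 48 h, and it was not called at q under 0.01. The order of the cutting subunits was the same in wild type cells at both times, Psmb8 above Psmb10 above Psmb9, and no spread is available to say whether neighbours differ.

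Psme1 and Psme2, the alpha and beta subunits of the activator PA28, stayed above 100 FPKM in every group. Psme1 (chromosome 14, 55578123 to 55581529, plus strand) stood at 122 and 106 FPKM at 24 h and at 117 and 121 at 48 h. Psme2 (chromosome 14, 55587441 to 55591113, minus strand) stood at 134 and 121 at 24 h and at 126 and 152 at 48 h. In the authors' deposited table their q-values ranged from 0.169 to 0.804. The pair lie 5911 bp apart. Psme1 shares its locus entry with Emc9, and 59.3% of the 50-base words of the Psme2 transcript also occur in its near copy Psme2b, so both values are uncertain.

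Relative to the constitutive subunits they replace, the inducible subunits were a minority in every group. In wild type cells at 24 h, Psmb8 stood at 18.7% of Psmb5, Psmb9 at 19.9% of Psmb6 and Psmb10 at 19.1% of Psmb7, on the length-scaled FPKM. In floxed cells at 24 h these ratios were 17.5%, 10.5% and 12.6%. At 48 h the ratios were 18.4%, 17.7% and 17.5% in wild type and 15.9%, 6.97% and 8.02% in floxed cells. The Psmb8 ratio moved least at 24 h, when Psmb5 was lower too. Summed over the 3 pairs, inducible over constitutive was 19.1% and 13.7% at 24 h and 18.0% and 10.6% at 48 h. Transcript ratios do not measure the share of assembled immunoproteasomes, and in bulk RNA fewer cells with a transcript and less of it per cell cannot be told apart.

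**Figure D3:**
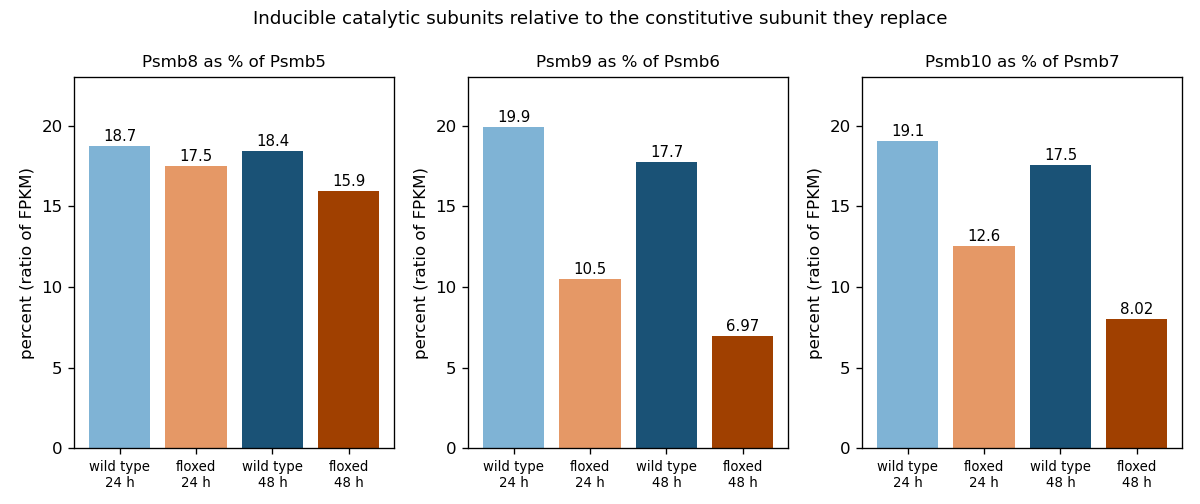
FPKM of each inducible cutting subunit as a percent of the constitutive subunit it replaces, 1 bar per group, axes from 0, with no error bars. Wild type bars lie between 17.5% and 19.9%, and the Psmb9 and Psmb10 bars of floxed cells lie between 6.97% and 12.6%.

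Tap1 and Tap2, which lie near Psmb8 and Psmb9 in the MHC region of chromosome 17, were also lower. They encode the transporter that carries proteasome products into the endoplasmic reticulum. Tap1 stood at 12.0 and 4.88 FPKM at 24 h and 10.3 and 5.81 at 48 h, and Tap2 at 42.3 and 25.8 and at 46.1 and 30.1, with calls at both times for each. Of all tested genes, 14.2% were called lower at 24 h and 31.0% at 48 h. The annotated ends of Psmb9 and Tap1, which lie head to head on opposite strands, overlap by 212 bp, and since strandedness is not given, reads there cannot be assigned. The class I heavy chain gene H2-K1 was higher, at 137 and 197 FPKM at 24 h and 129 and 535 at 48 h. Also called higher at 48 h on the class I peptide route were H2-D1 (190 and 1363), B2m (389 and 660) and Tapbp (36.9 and 69.7). Erap1 was called lower there (29.3 and 14.0). H2-D1 and B2m share their locus entries with other genes.

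Core particle genes had the highest median level, and 1 of the 14 was called at 24 h. That is 7.14%, against 27.6% of all tested genes, and at 48 h the 0 calls stand against 56.8%. Among genes of at least 50 FPKM in some group the shares called were 20.5% and 54.7%. The 14 constitutive genes ranged from 163 FPKM (Psmb6) to 377 (Psmb4) in wild type cells at 24 h, a 2.31-fold span, and the span was 2.36-fold in floxed cells at 48 h. None of the 7 alpha subunit genes, which form the outer rings, was called at either time. Their differences ranged from -0.28 to 0.10 on the log2 scale at 24 h and from -0.48 to -0.03 at 48 h, so all 7 lay below 0 at 48 h without a call, or 6 of 7 with groups rescaled to the same median. Psma6 came nearest, at 269 against 192 FPKM at 48 h with q = 0.0527 in the authors' deposited table, and it shares its locus entry with 4 other genes. Beta subunit genes lay on both sides of 0 at 48 h, from -0.18 to 0.23 on the log2 scale, with 0 of 7 called. With 2 libraries per group, missing the threshold does not show that the core genes were the same in both lines.

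Psmb5 was the exception at 24 h. It encodes the chymotrypsin-like cutting subunit (chromosome 14, 54614119 to 54618022, minus strand). It read 339 and 225 FPKM at 24 h, and 309.8 and 274 at 48 h. The lowest of the 4 values was that of floxed cells at 24 h. The ratio was 1.51-fold lower at 24 h (q = 0.000449 in the authors' deposited table) and 1.13-fold lower, without a call, at 48 h (q = 0.368 there). Psmb5 shares its locus entry with Mir686, and 57.1% of the 50-base words of its longest coding transcript occur in transcripts of other genes, mainly Gm3375, so this value is uncertain. The other cutting subunits had no call: Psmb6, with caspase-like activity, stood at 163 and 161 FPKM at 24 h and 155 and 181 at 48 h, and Psmb7, with trypsin-like activity, at 289 and 284 and at 283 and 311.

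Regulatory particle genes stood lower than the core and moved in both directions at 48 h. The 17 genes ranged from 73.7 FPKM (Psmd11) to 186 (Psmd2) in wild type cells at 24 h, and the median core level was 2.16 times the median regulatory level. At 24 h only Psmc1 of the 17 was called (5.88%, against 27.6% of all tested genes). It stood at 174 and 137 FPKM, 1.27-fold lower with q = 0.0490 in the authors' deposited table, the weakest call at that time, and at 174 and 151 at 48 h with no call. Of the 50-base words of Psmc1, 17.6% occur elsewhere, mainly in Gm9575. The first gene outside the threshold at 24 h was Psmd7, at q = 0.0938 in the authors' deposited table.

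At 48 h, 5 regulatory particle genes were higher and 2 lower, or 41.2% of the 17, against 56.8% of all tested genes. Psmd2, a scaffold of the base that docks ubiquitin shuttle proteins, stood at 186 and 212 FPKM at 24 h and at 186 and 280.0 at 48 h. It was 1.51-fold higher at 48 h (q = 0.00137 in the authors' deposited table), the only higher gene of at least 1.5-fold, and 26.4% of its 50-base words occur elsewhere, mainly in Gm5422. Psmd8, a lid subunit, stood at 129 and 139 at 24 h and at 125 and 180 at 48 h, 1.44-fold higher with q = 0.00448 in the authors' deposited table. The lid subunit gene Psmd13 stood at 115 and 153 at 48 h, 1.33-fold higher (q = 0.0246 in the authors' deposited table). The ATPase genes Psmc3 and Psmc6 were 1.33- and 1.31-fold higher, at 138 and 184 and at 119.9 and 157 FPKM. With the span of levels at 2.62-fold in wild type cells at 48 h, floxed cells reached 4.03-fold, from Psmd12 at 69.5 to Psmd2 at 280.0 FPKM.

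The 2 lower genes encode partners in the lid. Psmd14 is the metalloprotease that removes ubiquitin chains, and Psmd7 is the subunit it pairs with. Psmd14 stood at 133 and 123 FPKM at 24 h and at 129 and 96.5 at 48 h. Psmd7 stood at 163 and 133 at 24 h and at 161 and 121 at 48 h. Each was 1.33-fold lower at 48 h, with q = 0.0261 and q = 0.0245 in the authors' deposited table, and neither was called at q under 0.01. The ubiquitin receptor gene Psmd4 was not called, at 127 and 119.7 FPKM at 24 h and 124 and 122 at 48 h.

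At 48 h the largest differences of all 48 genes were those of a pair of assembly factors. Psmg1 and Psmg2 form a pair of chaperones that helps build the alpha ring. Psmg2 (chromosome 18, 67641599 to 67654162, plus strand) stood at 55.2 and 36.0 FPKM at 24 h, and at 58.3 and 20.7 at 48 h. Floxed cells were 1.53-fold lower after 24 h and 2.82-fold lower after 48 h, each with the smallest q in the authors' deposited table. Psmg1 (chromosome 16, 95979933 to 95990960, minus strand) stood at 64.4 and 57.2 at 24 h with no call, and at 65.9 and 27.0 at 48 h, 2.44-fold lower with q = 0.000165 in the authors' deposited table. The other chaperone pair, Psmg3 and Psmg4, had no call, at 53.1 and 45.3 and at 48.1 and 37.2 FPKM at 48 h.

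Psmd10, also called gankyrin, is a chaperone of the ATPase ring (chromosome X, 140948429 to 140956728, minus strand). It stood at 29.8 and 20.6 FPKM at 24 h, 1.45-fold lower with q = 0.00153 in the authors' deposited table. At 48 h it stood at 28.6 and 14.1, 2.03-fold lower with q = 0.000165 in the authors' deposited table. The further chaperones of the ATPase ring, Psmd5 and Psmd9, had no call: Psmd5 stood at 66.0 and 51.6 FPKM at 48 h and Psmd9 at 13.7 and 14.0. Of 7 assembly factors, 2 were lower at 24 h (28.6%, against 27.6% of all tested genes called) and 3 at 48 h (42.9%, against 56.8%).

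Among the remaining genes, Psmf1 and Psma8 were called at 48 h. Psmf1 encodes PI31, which binds the core particle. It stood at 12.9 and 13.2 FPKM at 24 h and at 12.7 and 8.98 at 48 h, 1.41-fold lower (q = 0.0117 in the authors' deposited table). Psma8 replaces Psma7 in the proteasome of spermatocytes, and stood at 4.64% of Psma7 in wild type cells at 24 h. Its levels were 14.4 and 15.6 FPKM at 24 h and 14.7 and 8.61 at 48 h, 1.71-fold lower at 48 h (q = 0.000316 in the authors' deposited table). None of the 50-base words of its transcript occurs, in the same direction, in a transcript of another annotated gene. Psme3, the nuclear activator PA28 gamma, and Psme4, the activator PA200, had no call, at 140.2 and 130.1 and at 33.2 and 41.6 FPKM at 48 h. Psmc3ip stood at 18.7 and 9.16 at 48 h, without a call (q = 0.0856 in the authors' deposited table), and shares its locus entry with Mlx.

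**Figure D4:**
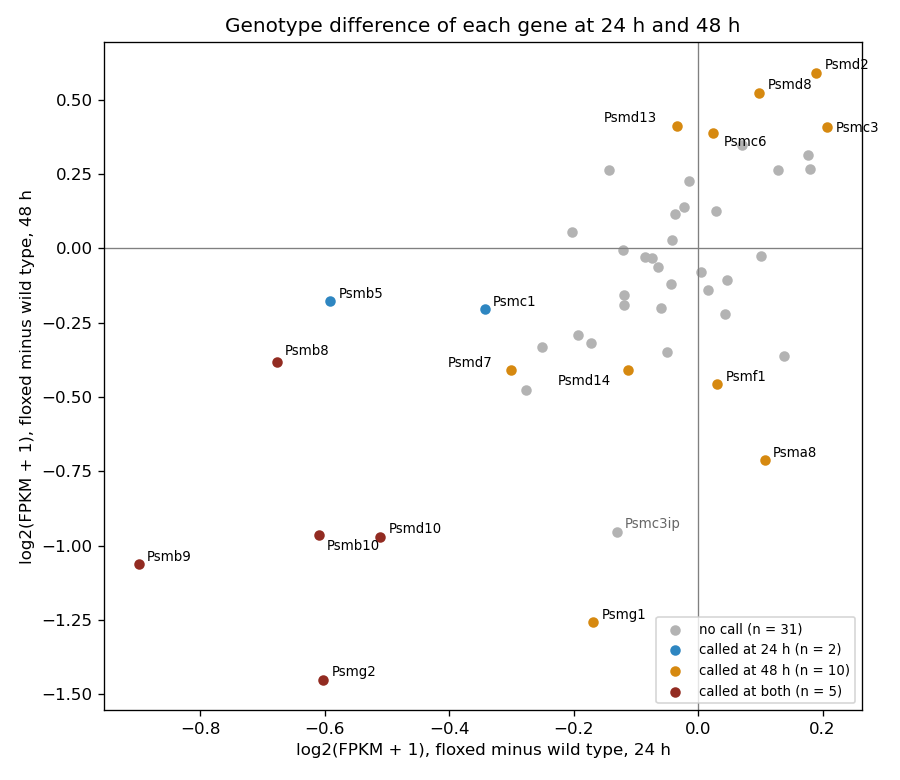
Difference of log2(FPKM + 1), floxed minus wild type, at 24 h (x axis) against 48 h (y axis) for each of the 48 genes, coloured by call. The 5 genes called at both times lie in the lower left, and the 5 higher genes at 48 h (Psmd2, Psmd8, Psmd13, Psmc3, Psmc6) lie between 0.39 and 0.59 on the y axis.

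Within wild type cells the proteasome genes held their levels between the times. Their log2 differences, 48 h minus 24 h, ranged from -0.23 (Psmb9) to 0.15 (Psmc3ip), with a median of -0.04, and 0 of 48 differed by 1.5-fold. In all, 0.313% of genes at 1 FPKM or more at both times were at least 1.5-fold higher and 1.57% at least 1.5-fold lower. In floxed cells the range was from -1.06 (Psmg1) to 0.40, and 5 of 48 genes were at least 1.5-fold lower at 48 h, where 15.5% of all genes were. These were Psmg1, Psma8, Psmg2, Psmc3ip and Psmg4. None was 1.5-fold higher, against 12.0% of all genes. A test of time was not used here, and a joint scaling of both times is not stated, so these are sizes without a call.

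Genes that work with the proteasome were listed apart from the rule. Among 15 partners and ubiquitin genes at 1 FPKM or more, 24 h gave 2 higher and 0 lower calls, and 48 h gave 1 higher and 3 lower, the shuttle gene Rad23b and the deubiquitinase genes Usp14 and Uchl5. These are 13.3% and 26.7%, against 27.6% and 56.8% of all tested genes. The ubiquitin genes Ubb and Rps27a had no call, with Ubb at 289 and 294 at 24 h and 274 and 334 at 48 h. Ubqln2, which shuttles ubiquitinated proteins to the proteasome, stood at 17.2 and 29.8 FPKM at 24 h and at 17.3 and 32.9 at 48 h, or 1.73- and 1.91-fold higher. Pomp, which drives core maturation, had no call, at 263 and 265 and at 264 and 307.

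Regulators of proteasome transcription had no call at 24 h (0 of 13, against 27.6% of all tested genes). At 48 h, 6 were higher and 2 lower, or 61.5%, near the 56.8% of all tested genes (25.7% higher, 31.0% lower). With or without a call, 6 of the 13 lay above 0 at 48 h and 7 below. Nfe2l1 encodes NRF1, which raises proteasome genes when the proteasome is impaired, and is named here for that role. It stood at 46.2 and 50.7 FPKM at 24 h and at 46.2 and 65.6 at 48 h, 1.42-fold higher (q = 0.0116 in the authors' deposited table). On the log2(FPKM + 1) scale the largest differences of the list were those of Stat3, Foxo4 and Mafg, a partner of NRF1, all higher at 48 h, by 1.70-, 1.71- and 1.57-fold as ratios of FPKM. Nfe2l2, which encodes NRF2, had no call at either time.

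Interferon signalling genes, which act upstream of the inducible subunits, had calls in both directions at each time. At 24 h, 2 of the 11 at 1 FPKM or more were higher and 1 was lower, and at 48 h 6 were higher and 1 lower. These shares, 27.3% and 63.6%, are near the 27.6% and 56.8% called in either direction among all tested genes. By direction, 25.7% of all tested genes were higher and 31.0% lower at 48 h. Of the 11, 8 lay below 0 at 24 h and 9 lay above 0 at 48 h. Their median log2 differences were -0.24 and 0.47, against -0.01 and -0.06 over all expressed genes. Irf9 stood at 10.5 and 4.62 FPKM at 24 h, 2.27-fold lower, and at 5.68 and 8.26 at 48 h, 1.45-fold higher. Socs1, a feedback inhibitor, was higher at both times, by 1.61-fold and 2.07-fold. Jak1, a signalling kinase, stood at 34.7 and 65.2 at 48 h and shares its locus entry with another gene. Irf1, named here as a known activator of the inducible subunits, had no call at 24 h (9.70 and 8.47 FPKM). At 48 h Irf1 was 1.91-fold higher (9.20 and 17.6). The 1 lower gene at 48 h was the receptor gene Ifngr1, at 189 and 104 FPKM, 1.82-fold lower. How these genes relate to the levels of the inducible subunits was not tested. Of the 9 genes of the MHC class I peptide route, 4 were higher and 3 lower at 48 h, where 25.7% of all tested genes were higher and 31.0% lower. Of the 6 myeloid markers at 1 FPKM or more, 4 were higher and 2 lower in floxed cells at 48 h. The shares of all tested genes were again 25.7% higher and 31.0% lower. Lyz2 (587 and 3333 FPKM), Itgam (45.8 and 100.1), Ptprc and Csf1r were higher, while Elane (3587 and 1745) and Mpo (1368 and 1011) were lower. Cd34, under 1 FPKM in every group, was also called lower (0.690 and 0.254). Elane and Cd34 share their locus entries with other genes. The part of these markers in the results was not tested.

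**Figure D5:**
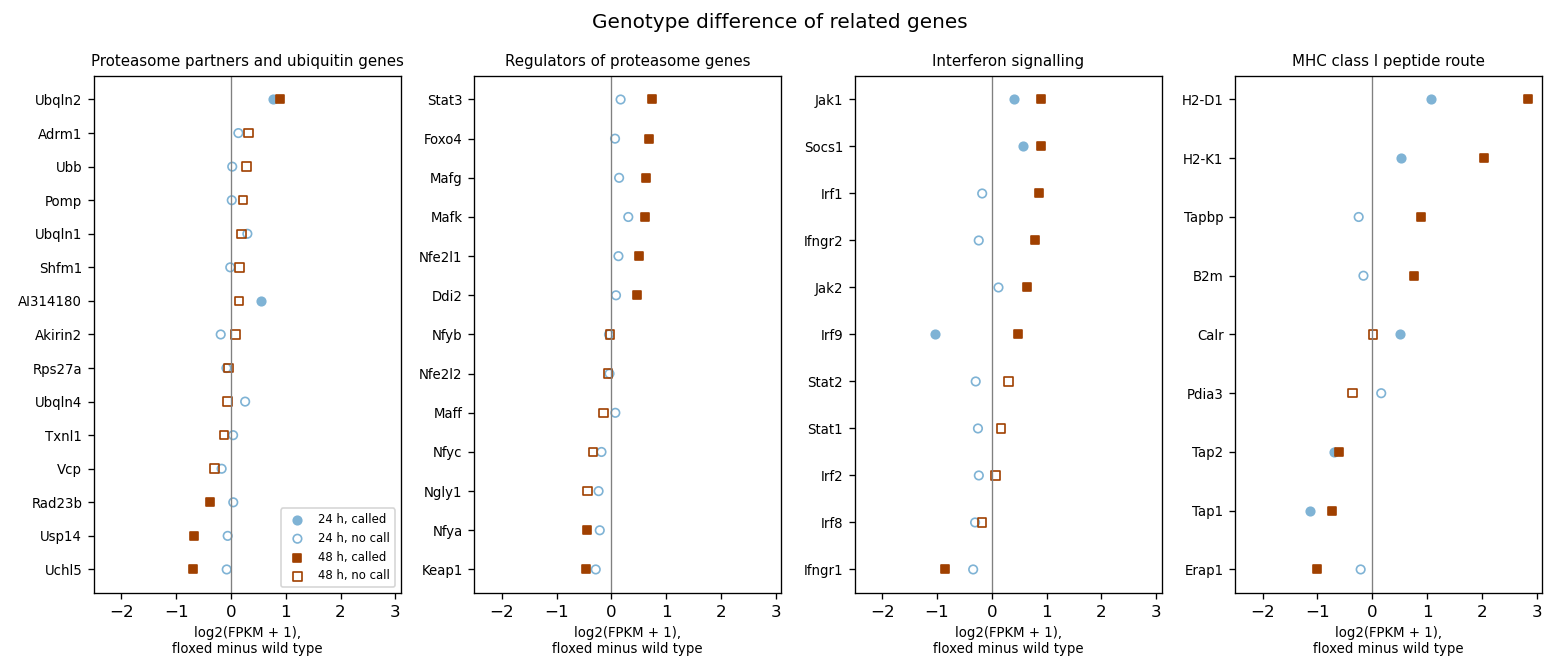
Difference of log2(FPKM + 1), floxed minus wild type, for the expressed genes of 4 lists outside the symbol rule, at 24 h (circles) and 48 h (squares), filled where called. Ubqln2 lies above 0 at both times, and Tap1 and Tap2 lie below 0 while H2-K1 and H2-D1 lie above 0.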

How the data were processed

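Poly(A) RNA of 8 libraries in 4 groups was used. The submitters' processing notes name the build mm10, Bowtie2, Cufflinks 2.1 and Cuffdiff, without roles or settings. Per the file headers, the authors deposited 1 FPKM value per gene and group, the duplicates combined, with a q-value and a fold for each time. The deposited fold was not used: ratios were computed from the FPKM, and log2 differences from log2(FPKM + 1), which understates low genes. Strandedness and annotation were not given in the sources used here.

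Genes reaching 1 FPKM in any group were kept, without 27 genes whose names had become numbers, and a gene with q under 1 was taken as tested. The test behind q is the authors', on duplicates, and FPKM does not show changes of total RNA per cell. Members and lists were chosen with earlier results of these data known. Named were the inducible subunits, Psmb5, Psmb6, Psmb7, the 15 called members with the largest differences, the ends of each role list, and the 3 largest called differences of each outside list. Others named were chosen after their values were seen. Some genes of the marker and partner lists are not reported here and were left out of those lists. All 49 genes matched GENCODE M21, and 50-base words of their longest coding transcripts were searched in its other genes' transcripts. Words were searched in the direction of the transcript alone. Counting was tested on simulated data. Python 3.11.15, pandas 2.3.3 and scipy 1.17.1 were used.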

Additional observations from a re-analysis of the deposited data

How the results depend on the processing

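The 7 calls at 24 h became 5 to 7, and no called gene changed direction under any of the 3 rescalings, a count added after the data were seen. The 15 calls at 48 h became 8 at q under 0.01 (46.2% of all genes), 7 at 1.5-fold or more (43.3%) and 5 at the smallest q (31.8%). They stayed at 15 at 5 FPKM or more, with no filter on low values, and without shared locus entries or Psmc3ip. The median difference at 24 h stayed between -0.06 and -0.04 in all 7 alternatives. At 48 h it was -0.23 with groups rescaled to the same sum, -0.053 with the same median and -0.20 under quantile normalization, where all genes had -0.15, 0.0034 and -0.07. The median of floxed cells from 24 to 48 h, -0.07, became 0.0065 with the same median. No paired analysis was possible because the table holds 1 value per group, and leaving out a replicate was not run for the same reason. Depth is unknown, so no interval or detection limit was computed.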

Other observations

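The enzymes Psmd14, Uchl5 and Usp14, which remove ubiquitin at the proteasome, were lower in floxed cells at 48 h, a grouping made after the values were seen. Of all tested genes, 31.0% were called lower at 48 h. Psmd14, part of the lid, is described above and was not called at q under 0.01. Uchl5 stood at 81.3 and 77.0 FPKM (wild type, then floxed) at 24 h and at 84.3 and 51.9 at 48 h, 1.62-fold lower with q = 0.000316 in the authors' deposited table. Usp14, which shares its locus entry with another gene, stood at 68.0 and 65.1 at 24 h and at 63.5 and 39.4 at 48 h, 1.61-fold lower with q = 0.00125 in the authors' deposited table. Neither was called at 24 h. Adrm1, the receptor that docks Uchl5, had no call, at 88.2 and 110.3 FPKM at 48 h.

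Gene length and the difference were weakly related across the 47 expressed genes other than Psmc3ip. Spearman's rho was 0.20 at 24 h and -0.08 at 48 h, given as a description across genes that share the same libraries. Near copies were common: 11 of 49 genes had at least 10% of their 50-base words in another gene, led by Psme2, Psmb5, Psmb3 and Psma5. For the inducible cutting subunits, Psmg1, Psmg2 and Psmd10 none of the words occurred in another gene's transcript in the same direction. Genes on the opposite strand overlap Psmb8, Psmb9 and Psmb10, and the search did not cover them.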
